A study of Mus musculus with 2 samples.

Results

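Chromatin contacts associated with RNA polymerase II (RNA Pol II) were followed in mouse embryonic stem cells (ESCs). They were those of the heat shock and mitochondrial chaperone genes Hsp90aa1, Hsp90ab1, Hspa8, Hsph1, Hspa5, Hspa9, Hspd1 and Hspe1. A contact belonged to a gene when an anchor, that is a peak of RNA Pol II binding at either end, lay within 1 kb of the gene in GENCODE vM1 (mm9). All 8 genes had such anchors, out of 12817 protein-coding genes with contacts. Together they had 9 anchors and 332 pairs of anchors in Ronin knockout cells, against 11 anchors and 945 pairs in control cells. These pairs were a small part of the 44328 pairs in the knockout file and the 128267 pairs in the control file. The measure is the paired-end tag (PET), a sequenced DNA fragment whose ends come from both anchors. Ronin (Thap11) is a DNA-binding protein of the THAP family that sits at the promoters of many housekeeping genes, and the comparison asks how the contacts of the chaperone genes stood in cells without it.

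Knockout cells were CreERT2; Ronin flox/flox ESCs given tamoxifen for 4 days, and control cells were the same CreERT2; Ronin flox/flox ESCs given ethanol for 4 days. Both came from blastocysts of CreERT2 animals bred to Ronin flox/flox animals and, by the study's methods, then to animals with 1 floxed and 1 deleted Ronin allele, so the controls also carried the floxed allele and the recombinase, and both were grown in serum with LIF. Tamoxifen was given to the knockout cells alone, so an effect of the drug and an effect of the deletion cannot be told apart. The authors merged 2 experiments per group before deposit, which left 1 set of contacts for each group and no spread between replicates. Every test below therefore compares these libraries, not the conditions, and every interval covers counting error only. The files hold contacts and no expression values, so neither the loss of Ronin nor the ESC markers could be checked with them.

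Molecular chaperones bind unfolded proteins and help them to fold, and the heat shock families named here are among the most abundant proteins of dividing cells. The cytosolic families HSP90 and HSP70 work in sequence on client proteins, Hspa5 serves the lumen of the endoplasmic reticulum, and Hspa9, Hspd1 and Hspe1 serve the mitochondrial matrix. Many of these genes are induced by heat shock factor 1 through the heat shock element, a run of inverted GAA units, while Hspa5 is induced by the unfolded protein response through the endoplasmic reticulum stress element. In growing cells they are also expressed without stress. Embryonic stem cells are known for high basal chaperone levels.

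The promoter stretches that carry these elements are shown because each lies inside an anchor described below. RefSeq promoter windows on GRCm38.p6, from 250 bases before to 50 bases after each start, were at hand for 4 of the 8 genes (Hspd1, Hspe1, Hspa5 and Hsph1). The windows were found again by exact match in NCBIM37, which gave the mm9 positions. Capitals mark the alternating TTC and GAA units of both heat shock elements, and the CCAAT and CCACG blocks of the Hspa5 promoter.
Hspe1 heat shock element, chr1:55144897-55144926, plus strand: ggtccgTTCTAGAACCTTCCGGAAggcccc
Hspa5 promoter, chr2:34627360-34627609, plus strand: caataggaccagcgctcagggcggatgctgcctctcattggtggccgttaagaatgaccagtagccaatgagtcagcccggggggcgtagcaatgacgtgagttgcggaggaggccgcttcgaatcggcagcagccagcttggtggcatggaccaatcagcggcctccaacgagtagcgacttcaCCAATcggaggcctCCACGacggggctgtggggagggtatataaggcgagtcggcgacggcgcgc
Hsph1 heat shock element, chr5:150438926-150438955, minus strand: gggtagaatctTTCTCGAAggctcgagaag

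The Hspe1 stretch lies at positions -95 to -66 from the Hspe1 start, between that start and the inner of the RefSeq starts of Hspd1. It holds a run of alternating units. All 30 of its bases also lie inside the GENCODE gene of Hspd1, in an annotated untranslated region. A run of 3 units (TTCNNGAANNTTC or GAANNTTCNNGAA, either strand) was found in 0.603% of the 32851 RefSeq windows of the same length. A run of 2 units (TTCNNGAA or GAANNTTC) was found in 15.1% of the windows, so the 2-unit match in the Hsph1 stretch was common. That stretch lies at positions -44 to -15 from a RefSeq start of Hsph1, but mostly inside the GENCODE gene, whose start is at 150438951. The window of Hsph1 also held a 3-unit run after its start. CCAAT followed after 9 bases by CCACG, searched on both strands after the sequence had been seen, was found in 0.119% of windows, among them that of Hspa5. The marked blocks of Hspa5 lie before its RefSeq start but inside its GENCODE gene, whose start is at 34627490. The Ronin-binding motif was found without mismatch in 0.673% of windows and with up to 2 mismatches in 2.73%. None of the windows of Hspd1, Hspe1, Hspa5 and Hsph1 held it, the closest match in them having 5 mismatches. A match is a description of the letters and not a binding site.

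The knockout file held 65276 PETs, against 156097 PETs in the control file, a ratio of 0.418 that served as the library ratio for each gene. A fall in PETs shared by all genes is part of this ratio, so a test against it cannot show such a fall. Pairs with at least 10 PETs, of which there were 171 in knockout and 218 in control, held 30.3% of the knockout PETs and 16.1% of the control PETs. Over the pairs with fewer than 10 PETs the ratio was 0.347, and over the 8973 protein-coding genes with at least 10 PETs its median was 0.364. A gene thus lay below the library ratio more often than not, as did 61.8% of the genes tested. In a bulk library, fewer cells with a contact and fewer contacts per cell cannot be told apart.

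The genes differed widely in the number of contacts at their anchors. Hsp90aa1 (ENSMUSG00000021270.7, chr12:111928815-111940938, minus strand), the stress-inducible cytosolic HSP90, had 54 PETs in knockout cells, against 188 PETs in control cells. Hsp90ab1 (ENSMUSG00000023944.8, chr17:45704724-45710220, minus strand), the constitutive cytosolic HSP90, had 31 PETs in knockout cells, against 87 PETs in control cells. In both libraries the inducible gene had the larger count, over an anchor of 34.4 kb that also covered 1700001K19Rik. The anchor over Hsp90ab1 measured 14.7 kb in the knockout file and 14.1 kb in the control file and reached Slc35b2 and Nfkbie, whose contacts cannot be told apart from its own.

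Hspa8 (ENSMUSG00000015656.10, chr9:40609067-40613283, plus strand), which encodes the constitutive HSP70 of the cytosol, had 72 PETs in knockout cells, against 219 PETs in control cells. Its contacts fell on 2 anchors that lay almost end to end over the gene and touched no other protein-coding gene. Hsph1 (ENSMUSG00000029657.8, chr5:150416862-150438951, minus strand), an HSP110 that exchanges the nucleotide of HSP70, had only 7 PETs in knockout cells, against 15 PETs in control cells. In the knockout library 4 of those 7 PETs came from pairs whose anchors shared an identical stretch of at least 100 bp, against none of the control PETs. The counts of Hsph1 are thus too small to show a change, and mapping to repeated sequence as a part of them was not tested.

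Hspa5 (ENSMUSG00000026864.7, chr2:34627490-34632051, plus strand), the HSP70 of the endoplasmic reticulum also known as BiP, had 45 PETs in knockout cells, against 90 PETs in control cells. Its anchor also covered Gapvd1 and Rabepk. Hspa9 (ENSMUSG00000024359.8, chr18:35097068-35114011, minus strand), the mitochondrial HSP70 that pulls proteins through the inner membrane, had 93 PETs in knockout cells, against 284 PETs in control cells. This was the largest count of the 8 genes in either library, over an anchor of 69.3 kb in knockout and 75.9 kb in control that also covered Etf1.

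Hspd1 (ENSMUSG00000025980.8, chr1:55134679-55145087, minus strand) and Hspe1 (ENSMUSG00000073676.4, chr1:55144976-55148151, plus strand) encode HSP60 and HSP10, the barrel and the lid of the mitochondrial chaperonin. They are transcribed away from each other, and their annotated starts overlap. A common anchor of 32.3 kb in knockout and 29.99 kb in control covered both and Coq10b, so their values are the same by construction and count as 1 locus. This locus had 36 PETs in knockout cells, against 91 PETs in control cells.

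**Figure D1:**
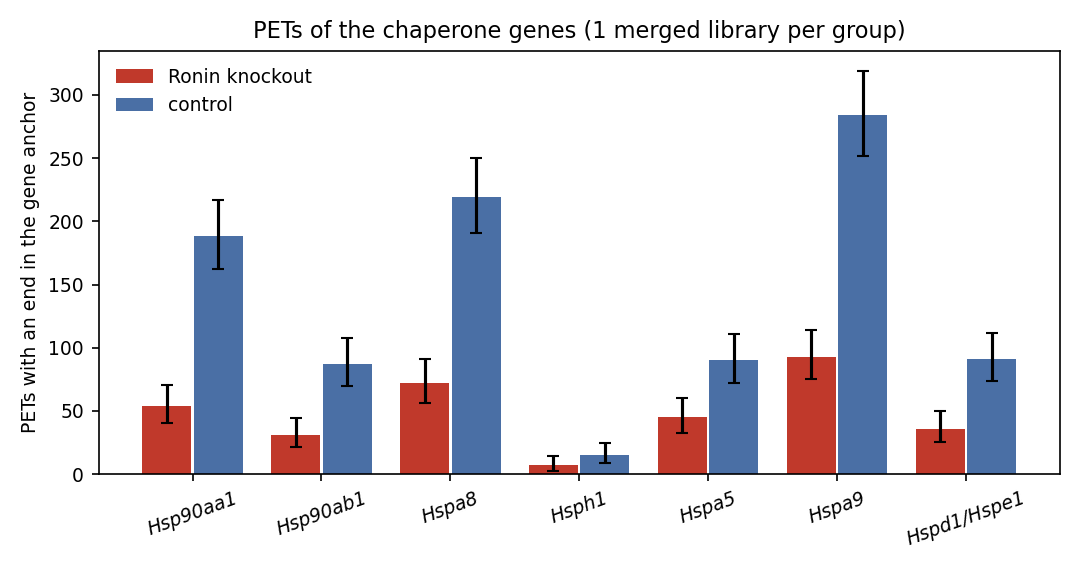
PETs (vertical axis, counts) with an end in the anchors of each chaperone gene, Ronin knockout in red to the left of control in blue, with exact Poisson 95% intervals. Every gene had fewer PETs in the knockout library, from 7 PETs for Hsph1 to 93 for Hspa9, against 15 to 284 in control.

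Levels between genes can be compared only per length, here as PETs per kb of anchor. By this level Hspa8 stood first in both libraries, with 2.65 PETs per kb in knockout (95% interval 2.07 to 3.33) and 8.03 in control (6.997 to 9.161). Hsp90ab1 followed with 2.11 in knockout and 6.18 in control, then Hspa5 with 2.02 and Hsp90aa1 with 1.57 in knockout, whereas in control Hsp90aa1 with 5.47 came before Hspa5 with 4.32. Hspa9 had 1.34 in knockout and 3.74 in control, and the Hspd1 and Hspe1 locus 1.11 in knockout and 3.03 in control. Hsph1 came last, with 0.455 PETs per kb in knockout (0.183 to 0.937) and 1.32 in control (0.741 to 2.18). Each gene's interval overlapped that of its neighbour in this order in both libraries, apart from Hsph1 in control. The first and the fifth genes, Hspa8 and Hspa9, had intervals that did not overlap in either library. The median over the genes tested was 0.534 PETs per kb in knockout and 1.28 in control, so every gene but Hsph1 lay well above it, at ranks of 201 to 932 of 8893 genes in knockout and 178 to 850 of 8958 genes in control. Hsph1 lay below the median in knockout, at rank 5560, and just above it in control, at rank 4219.

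All 8 genes had fewer PETs in knockout cells, and none differed from the library ratio after correction. With an exact two-sided binomial test against the share of all PETs and Benjamini-Hochberg adjustment over 8973 genes, 3.63% of the genes were called lower and 2.85% higher in knockout cells. An unadjusted p under 0.05 in that exact binomial test was found for 1557 of the 8973 genes, 1043 of them below the library ratio. Of the 8 chaperone genes 0 were called lower and 0 higher, and 2 had such an unadjusted p. Those were Hsp90aa1, with a ratio of knockout to control PETs of 0.287 (95% interval 0.208 to 0.391, exact p = 0.0136, adjusted p = 0.132), and Hspa9, with a ratio of 0.327 (0.256 to 0.415, exact p = 0.0419, adjusted p = 0.258). Both ratios lay below the library ratio of 0.418, and the interval of each still held the median gene ratio of 0.364. A reference chosen after seeing the data was the ratio of pairs with fewer than 10 PETs, 0.347. Against it p was 0.240 for Hsp90aa1 and 0.680 for Hspa9 (exact binomial test). Over all pairs with at least 2 PETs the ratio of knockout to control PETs was 0.729. In such pairs Hsp90aa1 had 0 knockout PETs, against 11 control PETs (exact binomial test against that ratio, adjusted p = 0.0132). No other alternative scaled to the PETs in the files called any of the 8 genes. In pairs with at least 2 PETs 30.9% of the 816 genes tested were called lower and 7.72% higher, so the call of Hsp90aa1 there was 1 of many.

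Hspa8 had a ratio of 0.329 (0.248 to 0.431, exact p = 0.0825, adjusted p = 0.375), close to that of Hspa9. Hsp90ab1 had a ratio of 0.356 (0.228 to 0.543), and the Hspd1 and Hspe1 locus a ratio of 0.396 (0.261 to 0.588). Hsph1 stood above the library ratio at 0.467, with an interval from 0.161 to 1.22 that leaves its direction unknown. Hspa5 was highest at 0.5 (0.342 to 0.723, exact p = 0.345, adjusted p = 0.740). Thus 6 of the 8 genes lay below the library ratio, beside 61.8% of all genes tested, and 4 of the 8 lay below the median gene. Those 6 count Hspd1 and Hspe1 apart, although they share their anchor and values. The side of Hspd1, Hspe1 and Hsp90ab1 depended on the ratio chosen as the reference, since they lay below 0.418 and above 0.347.

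**Figure D2:**
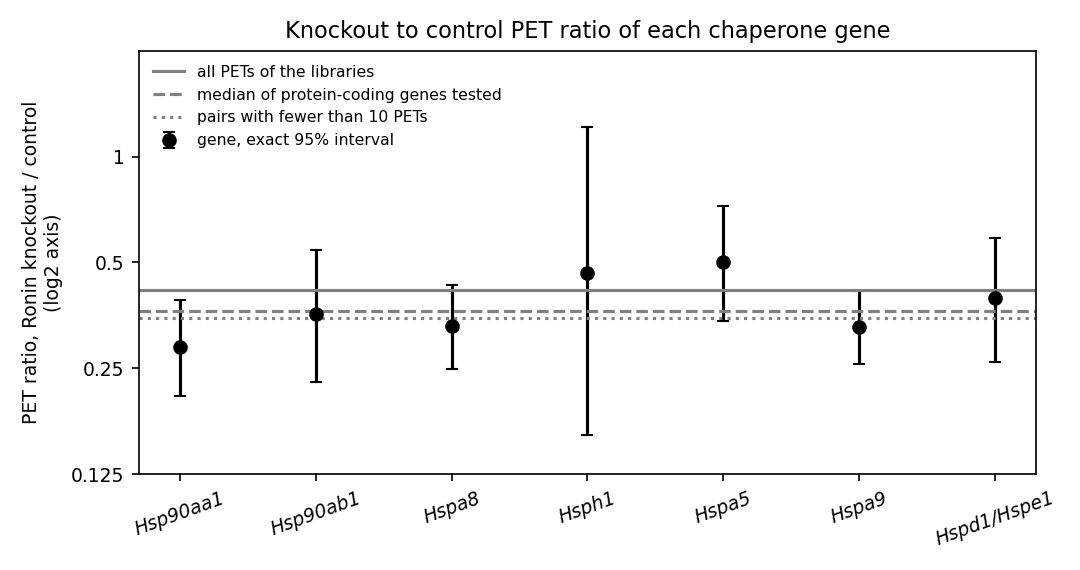
Ratio of Ronin knockout to control PETs (vertical axis, log2 scale) for each chaperone gene, with exact conditional binomial 95% intervals. Grey lines give the ratio of all PETs (0.418), of the median gene tested (0.364) and of pairs with fewer than 10 PETs (0.347). The interval of Hsp90aa1, from 0.208 to 0.391, lies below the first line, and that of Hspa9, from 0.256 to 0.415, ends just under it.

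If equal PETs in both libraries were taken as the null, every gene but Hsph1 was called lower, 7 of 8 with Hspd1 and Hspe1 counted apart. Of those 7, Hspa5 had the least extreme adjusted p = 0.000403, and Hspa9 had 7.91e-22 (exact binomial test). Under that null 62.8% of the genes tested were called lower and 1.11% higher, so a call without scaling says little about the chaperone genes. The study's library totals of PETs over 5 kb, which include PETs outside peaks, had a knockout to control ratio of 0.799. Scaled to it, the same 7 genes were called lower (Hspa5 at adjusted p = 0.0223, exact binomial test), beside 48.2% of genes called lower and 1.46% higher. Counted once over shared pairs, the 8 genes had 338 PETs in knockout cells, against 972 PETs in control cells, a ratio of 0.348 (0.306 to 0.394). The ratio of the 7 loci did not differ between any of the 21 combinations tested (Fisher's exact test). The least alike were Hspa5 and Hsp90aa1, with an odds ratio of 1.74 (p = 0.0277, adjusted p = 0.559, Fisher's exact test).

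The genes with counts most like those of Hspa9, the gene with the most PETs, were Dbf4 with 94 PETs in knockout and 278 in control, Aldh16a1 with 90 and 284 in the same order, and Golph3l with 90 and 288. Likeness was the Euclidean distance on the log2(PETs + 1) scale over the 2 libraries, and these values span 0.03 to 0.05. Each has anchors of its own, and the anchor over Golph3l was itself joined to Hspa9 by 1 PET in each library.

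**Figure D3:**
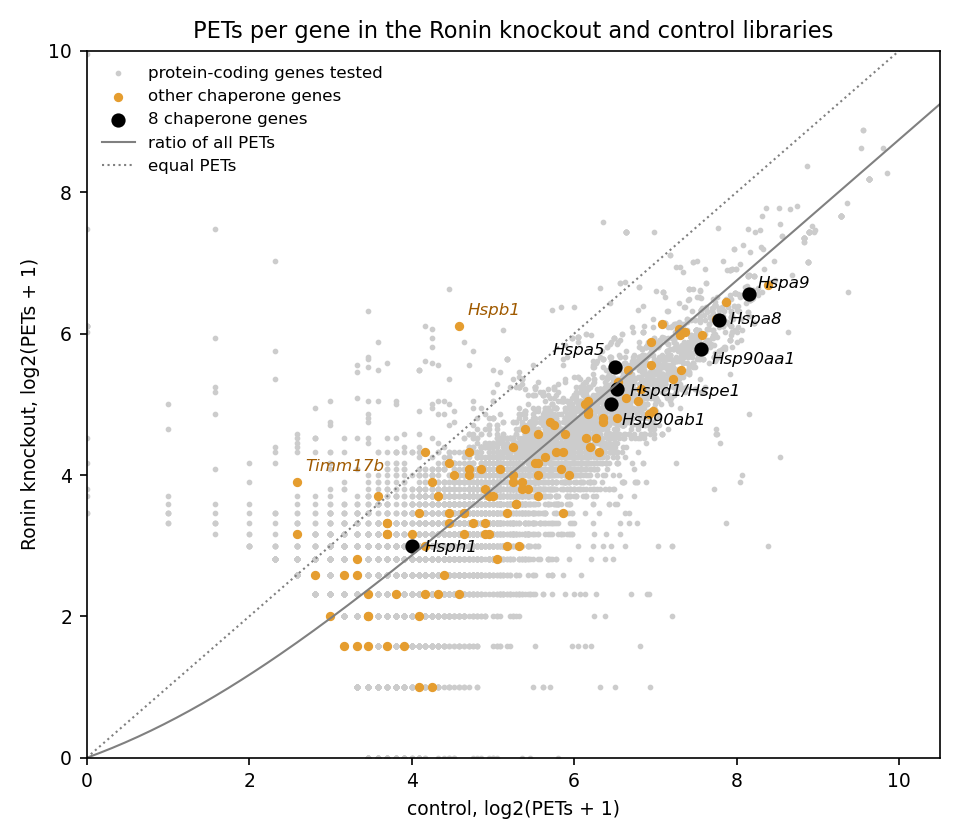
PETs per protein-coding gene on a log2(PETs + 1) scale, Ronin knockout on the vertical axis and control on the horizontal axis. Black points are the 8 chaperone genes, orange points other chaperone genes and grey points all genes with at least 10 PETs. The solid line is the ratio of all PETs (0.418) and the dotted line equal PETs. The black points follow the grey cloud, while Hspb1 and Timm17b stand above it.

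Most contacts of the chaperone genes, as counted here, joined different chromosomes. For Ronin loops the paper set such contacts aside, citing reports of more noise in them than in intrachromosomal ones. Intrachromosomal pairs held 31 of 338 PETs in knockout cells, 9.17% (exact binomial 95% interval 6.32 to 12.8), against 50 of 972 PETs in control cells, 5.14% (3.84 to 6.73). Over the genes tested the median intrachromosomal share was 8.33% in knockout and 9.09% in control. The ratio of knockout to control PETs of the 8 genes was 0.620 (0.383 to 0.990) for intrachromosomal pairs and 0.333 (0.292 to 0.379) for interchromosomal pairs, beside 0.492 and 0.404 over all such pairs in the files. Of the genes with the larger counts, Hsp90aa1 had 6 intrachromosomal PETs in knockout and 5 in control, Hspa5 had 7 in knockout and 8 in control, and Hspa8 had 4 in knockout and 10 in control. These counts are too small to rank the genes by.

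By count, and not per kb, Hspa9 had the most intrachromosomal pairs under 1 Mb, over the widest anchor of the 8 genes. In knockout cells 6 of its 8 intrachromosomal pairs spanned under 1 Mb, against 7 of its 13 pairs in control cells. The anchor over Egr1, an immediate early transcription factor gene, lay 64.3 kb away and was joined to Hspa9 by 1 PET in knockout cells, and in control cells it lay 61.7 kb away and was joined by 2 PETs. The anchor over Kdm3b and Fam53c was joined by 1 PET in knockout and 2 PETs in control, and that over Ctnna1, which encodes alpha-catenin, by 1 PET in knockout and 2 PETs in control. The anchor over Matr3, Paip2 and Slc23a1 was joined by 2 PETs in knockout and 1 PET in control. These were the neighbours of Hspa9 found in both libraries, 4 of its 13 intrachromosomal control pairs. The nearest partner in the knockout file, 38.05 kb away, was an anchor that in the control file formed part of the wider anchor over Hspa9 itself.

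The other genes had few intrachromosomal partners. Hsp90ab1 was joined to the neighbouring anchor over Slc29a1, a nucleoside transporter gene, by 2 PETs at 13.7 kb in control cells alone, while its nearest partner in knockout cells lay 13.02 kb away over Nfkbie with 1 PET. Hsp90aa1 was joined by 1 PET in each library to the neighbouring anchor over 1700001K19Rik, at 25.9 kb in knockout and 23.3 kb in control. In knockout cells that anchor also reached Dync1h1, which encodes the dynein heavy chain, and in control cells Dync1h1 had a separate anchor with 1 PET at 89.5 kb.

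The 2 anchors over Hspa8 were joined to each other by 1 PET in knockout and 3 PETs in control. The nearest other partner of Hspa8 lay 20.3 Mb away in knockout cells, over Zfp26, and 3.30 Mb away in control cells, over BC024479. Hspa5 had its nearest partner 35.8 kb away over Fbxw2 and Rabepk in knockout cells, whereas the nearest of its 8 control partners lay 31.4 Mb away, over Nmt2. The Hspd1 and Hspe1 locus had its nearest partner 25.9 kb away in knockout cells, an anchor with no protein-coding gene, and 48.9 kb away in control cells, over Mob4. Hsph1 had no intrachromosomal pair in either library.

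Over the 8 genes, 11 of 29 intrachromosomal pairs spanned under 1 Mb in knockout cells, 37.9%, against 13 of 43 pairs in control cells, 30.2%, leaving out the pair that joins the 2 anchors over Hspa8. With that pair kept the counts were 12 of 30 in knockout and 14 of 44 in control, 31.8%. The same share over the whole library was 42.6% in knockout and 36.7% in control.

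**Figure D4:**
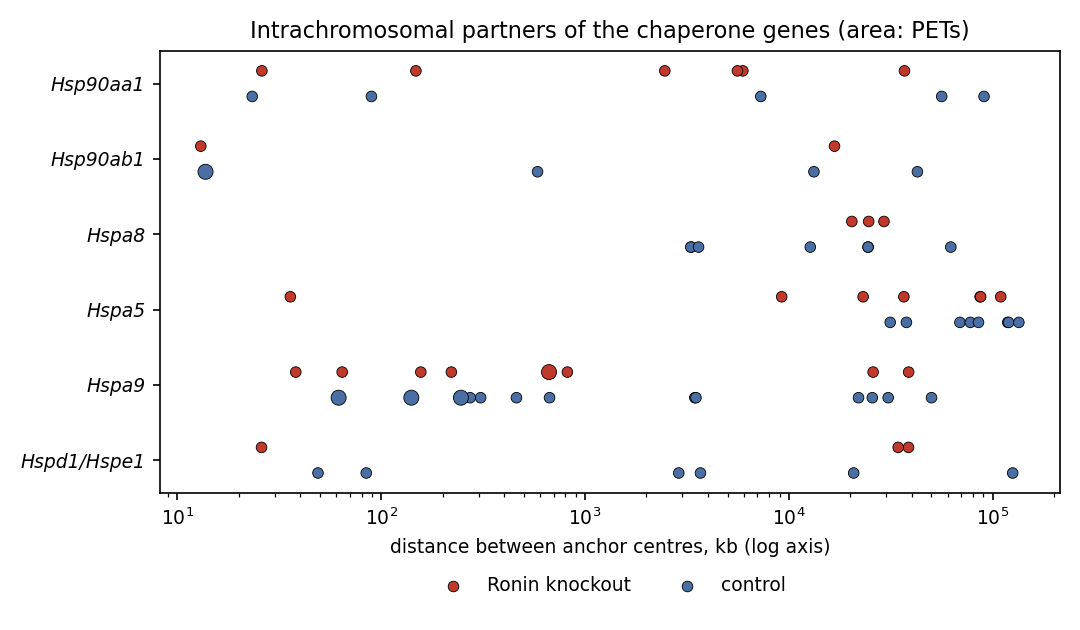
Distance between anchor centres (horizontal axis, kb, log scale) of each intrachromosomal partner of the chaperone genes, with Ronin knockout in red above control in blue and point area in proportion to PETs (1 or 2). Hspa9 has 6 of 8 knockout partners and 7 of 13 control partners under 1 Mb, while Hspa8 has none there in either library. Hsph1 had no such pair and is left out.

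Interchromosomal partners were many and nearly always seen once, and noise as a part of them was not tested. Of the pairs of the 8 genes, 98.5% in knockout and 97.6% in control held 1 PET, and only 5 pairs in knockout and 23 pairs in control held 2 or more. Hspa9 reached 81 interchromosomal partners in knockout and 260 in control, Hspa8 67 in knockout and 203 in control, and Hsp90aa1 48 in knockout and 177 in control.

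The interchromosomal pair with the most PETs joined Hspa8 to an anchor over Zfp367, a zinc finger gene, and Slc35d2, with 2 PETs in knockout and 4 PETs in control. The anchors of that pair shared no identical stretch longer than 56 bp, and none of the 2565 distinct stretches of 20 bases in the Hspa8 transcripts occurred in the partner anchor. Mapping to similar sequence as a source of this pair was not tested. Hsp90aa1 was joined to the anchor over Hnrnpa2b1 and Cbx3, a known housekeeping promoter pair, by 3 PETs in control cells, and no such pair was seen in knockout cells. Hspa9 was joined by 3 PETs in knockout and 2 PETs in control to an anchor at Gm10800, which lies in a repeat that holds many of the most frequent pairs of both files. Its anchors shared no identical stretch longer than 15 bp in either library, and repeated sequence as the source of that pair was not tested. The study's methods call an interaction high-confidence when it has 3 independent PETs, which pairs seen once do not reach.

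Contacts between the chaperone genes themselves were rare. The knockout file held 0 pairs that join different genes of the 8, and the control file held 2, Hsp90aa1 with Hspa5 and Hsp90aa1 with Hspa9, each with 1 PET. At a library ratio of 0.418 these counts cannot show a difference. Pairs with other chaperone genes also held 1 PET each, apart from Hsph1 with the anchor over Ptges3, which encodes the HSP90 co-chaperone p23, with 2 PETs in knockout cells. The anchors of that pair shared an identical stretch of 101 bp, and repeated sequence as its source was not tested.

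In knockout cells the other partners of this kind were Bag4, Calr and Dnajc19 for Hspa5, Dnaja2 for Hspa8, Hspa1b, Hspb7 and Timm44 for Hspa9, and P4hb and Timm50 for the Hspd1 and Hspe1 locus. In control cells they were Dnaja1, Bag4, Fkbp5, Hsf2bp, Phb2 and Yme1l1 for Hsp90aa1, and Hyou1, Dnajb9, Grpel2, Tomm40 and Spg7 for Hspa8. They were Dnajc7, Dnajc8, Dnajc14, Dnajb4 and Tomm22 for Hspa9, and Canx, Dnajc18 and both anchors over the heat shock factor gene Hsf2 for the Hspd1 and Hspe1 locus. Hyou1 alone lay on the chromosome of its partner. Most of these anchors covered further genes, and no pair of this kind was found in both libraries.

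Few contacts of the control library were found again in the knockout library. Of the control pairs of the 8 genes 97.6% held 1 PET. With 1 merged library per group, the share found again between libraries of the same cells is unknown, and the part of depth was not tested. A control pair was taken as found again when a knockout pair overlapped it by at least 1 bp at both anchors. This held for 17 of 945 control pairs of the chaperone genes, 1.80% (exact binomial 95% interval 1.05 to 2.86), and the 17 knockout pairs with a match were 5.12% of 332 (3.01 to 8.07). Over all pairs the shares were 1.36% of control pairs and 3.93% of knockout pairs, which lie inside those intervals. Of the intrachromosomal control pairs of the 8 genes 6 of 44 were found again, and of the interchromosomal ones 11 of 901. Hspa9 accounted for 9 of the 17 and Hsp90ab1 and Hsph1 for none. Among control pairs with at least 2 PETs, 7 of 23 were found again, 30.4% (13.2 to 52.9), beside 26.3% over all such pairs.

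The pairs of Hspa8 with Zfp367, of Hspa9 with Gm10800 and of Hsp90aa1 with Brd2, a bromodomain gene, were the interchromosomal pairs with at least 2 control PETs that were found again. The remaining interchromosomal matches had 1 PET in each library. Some control partners were joined to several of the 8 genes. Of the control partner anchors 55 were joined to at least 2 of the 7 loci and 10 to at least 3, against 13 and 0 in knockout cells. The anchor over Rad51c and Tex14, named after its values were seen, was joined to 4 loci in control cells, namely Hsp90aa1, Hsp90ab1, Hspa9 and Hsph1. With fewer PETs, fewer partners can recur, and the part of depth in this was not tested.

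Most partners lay at promoters in both libraries. An anchor within 2.5 kb of a protein-coding start made up 249 of 318 partners in knockout cells, 78.3% (73.4 to 82.7), against 637 of 873 partners in control cells, 73.0% (69.9 to 75.9). Over all anchors in the files the share was 54.8% in knockout and 44.1% in control. Partners of the chaperone genes were wider than these, with a median width of 16.7 kb in knockout and 15.8 kb in control, against 4.74 kb and 3.28 kb over all anchors of those libraries. When each pair of the whole file lent both of its ends, the share at promoters was 78.4% in knockout and 75.8% in control, close to the chaperone genes in both. For single genes the share ran from 75.0% to 100% in knockout and from 70.2% to 76.6% in control, with intervals that overlapped for all of them.

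Of 134 other chaperone genes with PETs, 111 were tested, and 0 were called lower and 2 higher in knockout cells, beside 3.63% called lower and 2.85% higher over all genes. At an unadjusted p under 0.05 in the exact binomial test 10 of them lay below the library ratio and 6 above it, beside 1043 and 514 of all genes tested. Of those 111 genes 71 lay below the library ratio, and their median ratio was 0.370, beside 0.364 over all genes tested. HSP90 genes and co-chaperones had a median of 0.333 over 19 genes tested, J-domain proteins 0.326 over 25, cytosolic HSP70 and HSP110 genes with their partners 0.370 over 17, endoplasmic reticulum chaperones 0.403 over 22, and mitochondrial chaperones with the import machinery 0.377 over 29. These medians count those of the 8 genes that belong to a list, of which the J-domain list has none. The small heat shock proteins and the heat shock factors had 4 genes tested each, with medians of 0.759 and 0.545. The median of the small heat shock proteins was 0.376 when anchors of both libraries that overlapped were joined to 1 region, and Hspb1 and Hspb6 had much wider anchors in knockout than in control.

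Among single genes of the lists, Ptges3, whose protein p23 stabilises the closed form of HSP90, had 102 PETs in knockout cells, against 334 PETs in control cells (ratio 0.305). Fkbp8, an immunophilin, had 64 and 164 PETs in the same order. Bag4, which encodes an HSP70 nucleotide exchange factor, had 73 PETs in knockout and 213 PETs in control, over 2 anchors that it shared with 7 other genes. Hspa1b, an inducible HSP70, had 28 PETs in knockout and 120 PETs in control (ratio 0.233, adjusted p = 0.0572, exact binomial test), and its near-identical copy Hspa1a 5 in knockout and 6 in control. Reads from sequence identical in both copies were dropped by the authors' alignment, so neither count holds them. Hspa4 had as many PETs over both libraries as Hspa1b, 36 in knockout and 112 in control (ratio 0.321, adjusted p = 0.560, exact binomial test). Canx, which encodes the lectin chaperone calnexin, had 44 PETs in knockout and 158 PETs in control (ratio 0.278), and P4hb, a protein disulfide isomerase, had 86 and 233. Tomm20, the import receptor of the outer membrane, had 62 PETs in knockout and 190 PETs in control, and Timm44, which tethers Hspa9 to the import channel, had 69 and 135. None of these passed the test after adjustment.

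Dnajc8 and Dnajb4, J-domain proteins, had 66 and 62 PETs in knockout and 156 and 157 PETs in control. Hsf1, the main heat shock factor, had 16 PETs in knockout and 25 PETs in control, and Hsf2 had 32 PETs in knockout and 71 PETs in control. Hspb8 had 12 PETs in knockout and 30 PETs in control. These ratios, too, did not differ from the library ratio after adjustment.

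The genes called higher were Hspb1, which encodes the small heat shock protein HSP27 known in mouse as HSP25, and Timm17b, a subunit of the mitochondrial import channel. Hspb1 had 68 PETs in knockout cells, against 23 PETs in control cells (adjusted p = 1.65e-16, exact binomial test). Its knockout anchor, 54.7 kb wide, also covered Ywhag, whereas its control anchor was 7.01 kb wide and covered Hspb1 alone. Timm17b had 14 PETs in knockout cells, against 5 PETs in control cells (adjusted p = 0.00270, exact binomial test), over anchors of 34.5 kb in knockout and 8.78 kb in control. When anchors of both libraries that overlapped were joined to 1 region, Hspb1 had 68 PETs in knockout and 169 in control, and Timm17b 24 in knockout and 71 in control. Neither gene was called then (adjusted p = 0.998 for Hspb1 and 0.857 for Timm17b, exact binomial test), and 0 of 112 other chaperone genes tested were called lower or higher. The summed PET ratio of the 8 genes was 0.352 over the joined regions, against 0.348 without joining. Their anchors had much the same width in both libraries apart from Hsph1, with 15.4 kb in knockout and 11.3 kb in control, whose ratio was 0.389 over the joined regions, below the library ratio.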

How the data were processed

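RNA Pol II ChIA-PET of mouse ESCs was analysed in 1 merged library each of Ronin knockout and control cells. Per the labels and the study's methods, the authors removed linker sequence (cutadapt) and aligned each mate on its own to mm9 (Bowtie 1.1.1). Mates with more than 1 best position were dropped. The authors kept 1 copy of duplicate PETs and called peaks (MACS 1.4.2) after merging replicates. Intrachromosomal PETs shorter than 4 kb were dropped, and a PET entered a pair when each of its ends fell in a peak. The values deposited are raw counts of PETs per pair of peaks and per peak, a p-value with its adjusted value per pair, and the distance between peak centres in bp as a signed score. The counts were not normalised. The authors' p-values served only as a filter in one alternative.

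Peaks were assigned to protein-coding genes (GENCODE vM1) lying no farther than 1 kb away, each pair being counted once per gene. Genes with at least 10 PETs were tested by an exact two-sided binomial test against the knockout share of all PETs (29.5%), with Benjamini-Hochberg adjustment and a threshold of 0.05. Ratios have exact conditional binomial 95% intervals, counts exact Poisson and shares exact Clopper-Pearson intervals. The test was run on simulated data. The library totals were 65276 PETs for knockout and 156097 PETs for control, so a gene with few PETs has a wide interval.

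The 8 genes and the chaperone lists were chosen with earlier results of these data known. Named were all 8 genes. Also named were their intrachromosomal partners with at least 2 PETs, their nearest partners, their interchromosomal partners with at least 3 PETs and partners at other chaperone genes. In each list the 2 other genes with the most PETs, with ties, and all called genes were named. Pairs whose peaks shared an identical stretch of at least 100 bp in NCBIM37 were marked. Promoter sequences are from RefSeq on GRCm38.p6. Python 3.11.15 was used with numpy 2.4.6, pandas 2.3.3, scipy 1.17.1 and matplotlib 3.10.9.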

Additional observations from a re-analysis of the deposited data

How the results depend on the processing

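With 1 merged library per group no library could be left out. No paired analysis was possible because the labels give no replicate numbers that the groups share. The count of genes called lower in knockout cells, 326, became 5637 with equal PETs as the null, 4326 with the study's library totals of PETs over 5 kb, 18 with intrachromosomal pairs, 92 with each pair counted once, 123 with the ratio of pairs under 10 PETs and 152 with joined anchors. The count called higher, 256, became 100 (equal PETs), 131 (PETs over 5 kb), 34 (intrachromosomal pairs), 63 (pairs with at least 2 PETs), 388 (ratio of pairs under 10 PETs) and 69 (joined anchors). The alternatives with the ratio of pairs under 10 PETs and with joined anchors were chosen after seeing the data. Of the 8 genes, 6 lay below the library ratio, but 2 did so with intrachromosomal pairs and 3 with each pair counted once, with the authors' adjusted p under 0.05 or with the ratio of pairs under 10 PETs. The summed ratio of 0.348 became 0.620 with intrachromosomal pairs, 0.220 with pairs of at least 2 PETs and 0.436 with the authors' adjusted p. Over all pairs of those kinds the ratio was 0.492, 0.729 and 0.441, in the same order. The share of control pairs found again became 30.4% with at least 2 PETs. The share of partners at promoters became 100% in knockout and 85.7% in control with at least 2 PETs, and 80.5% in control for intrachromosomal partners. The scaled ratio of Hspa5, 1.20, turned to 0.5 with equal PETs and 0.626 with PETs over 5 kb. With joined anchors the scaled ratio of Hspb1, 7.07, turned to 0.962 and that of Timm17b, 6.70, to 0.808. With at least 2 PETs 252 genes were called lower, close in number but 30.9% of the 816 genes tested, against 3.63%. The other alternatives left these results within their limits. The causes were not tested, apart from the smaller numbers of genes tested, 1747 with intrachromosomal pairs and 816 with at least 2 PETs.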
